A study of Mus musculus with 10 samples.

Results

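Very low density lipoprotein (VLDL) is the particle in which the liver exports triglyceride, and 10 genes of its assembly and of the apolipoproteins that travel on it were followed here: Apob, Mttp, Tm6sf2, Apoa1, Apoa4, Apoa5, Apoc2, Apoc3, Apoe and Apom. They were chosen by gene symbol, and all 10 were found among the 55401 genes of the deposited table. RNA came from mouse liver, with 5 libraries labelled NIKflox (written NIKF/F in the study design) and 5 labelled NIKhKO (NIKHKO). Both genotypes had been given the Lieber-DeCarli liquid diet with 5% ethanol over 4 weeks, so that no library shows the liver without ethanol. The title of the study speaks of hepatic NIK, the NF-kB inducing kinase encoded by Map3k14. The part of the gene that the allele removes, the driver of the deletion, and the age of the mice are not given in the sources used here.

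Assembly of VLDL begins in the endoplasmic reticulum of the hepatocyte, where the microsomal triglyceride transfer protein (Mttp) loads lipid onto the growing apolipoprotein B chain (Apob), and Tm6sf2, a membrane protein of the same compartment and of the early secretory path, is needed for the particle to take up its full load. Smaller, exchangeable apolipoproteins then set the fate of the particle in plasma. Apoc2 is the cofactor of lipoprotein lipase, Apoc3 restrains the lipase and the uptake of remnants, Apoa5 promotes lipolysis, and Apoe is a ligand of the hepatic receptors. Apoa1 is the main protein of high density lipoprotein (HDL), Apoa4 is a lipid-binding protein known to be abundant in the RNA of fatty mouse liver, and Apom carries sphingosine-1-phosphate on HDL.

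Total estimated counts ran from 47161869 to 65052525 per library, and the 10 genes held between 653 and 1085655 counts each in a library. Map3k14 read 0.483 to 0.899 FPKM (fragments per kilobase of transcript, scaled to the mapped fragments of the library) in NIKflox and 0.347 to 0.443 FPKM in NIKhKO, with ranges that did not overlap (log2 fold change −0.59, SE 0.19; edgeR adjusted p = 0.33). Of the 10 hepatocyte markers listed, 9 were in the table, and their FPKM summed to 39590 to 53277 in NIKflox and 44692 to 50917 in NIKhKO. In bulk liver, fewer cells of a type and less RNA per cell cannot be told apart. The 10 heart muscle markers summed to 7.62 FPKM in NIKflox 2 and 34.9 FPKM in NIKflox 4, and to at most 1.49 FPKM in the other 8 libraries.

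None of the 10 genes passed the test between genotypes. Each was tested with edgeR's quasi-likelihood test across 12731 genes, with Benjamini-Hochberg adjustment over all of them and a call at an adjusted p below 0.05. The count called was 0 of 10, where 0.0236% of all genes tested were called (0.00785% lower and 0.0157% higher in NIKhKO). At an unadjusted p below 0.05 there were 2 of the 10, Apoa4 and Mttp, both lower in NIKhKO, beside 10% of all genes in either direction and 5.14% lower in NIKhKO. With DESeq2, which gave no adjusted p for Apoc2, the count called was also 0, where 207 of 12699 genes were called. It put 2 of the 9 members with a p below an unadjusted 0.05, beside 1380 of all genes. With limma on log2(FPKM + 1) 0 of 12731 genes were called, so the 0 among the 10 is not particular to them. At an unadjusted p below 0.05 limma had 3 of the 10, beside 1375 of all genes. Log2 fold changes (NIKhKO minus NIKflox) were negative for 7 and positive for 3, with a median of −0.14, against 51.8% negative and a median of −0.01 over all genes. The FPKM ranges of the genotypes overlapped for all 10, while 2.20% of all genes had ranges that lay apart (1.59% with NIKhKO lower).

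The 10 genes were among the more abundant transcripts of these livers, the lowest rank by FPKM being 2555 of 55401 (Apoc2, in its lowest library). Per transcript length, NIKflox livers held 6134 ± 1100 FPKM of Apoa1, 5408 ± 959 of Apoe, 1397 ± 305 of Apoc3, 913 ± 145 of Apoa4, 396 ± 122 of Apoa5, 269 ± 10.2 of Apom, 205 ± 95.03 of Apoc2, 54.0 ± 6.13 of Apob, 38.9 ± 3.55 of Mttp and 33.4 ± 1.75 of Tm6sf2 (mean ± SD, n = 5). The ranges lay apart in NIKflox only between Apoe and Apoc3, between Apoa4 and Apoa5 and between Apob and Mttp; other neighbours in this order overlapped. In NIKhKO the order of the means differed at 2 places, with Apoe (5977 ± 1255 FPKM) ahead of Apoa1 (4982 ± 806 FPKM) and Tm6sf2 (31.9 ± 0.763 FPKM) ahead of Mttp (30.5 ± 4.20 FPKM), and the ranges of both pairs overlapped. Library by library, Apoa1 was ahead of Apoe in only 2 of 5 NIKflox livers, and Apoe was ahead in 4 of 5 NIKhKO livers. Mttp was ahead of Tm6sf2 in 4 of 5 NIKflox livers, and Tm6sf2 was ahead in 3 of 5 NIKhKO livers. Apoe ranked between 9 and 22 among all genes by FPKM and Apoa1 between 15 and 25, depending on the library. The scaffold itself, Apob, ranked between 706 and 1090. Together the 10 genes made up 2.64 to 3.43% of the summed FPKM in NIKflox and 2.21 to 3.48% in NIKhKO.

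**Figure D1:**
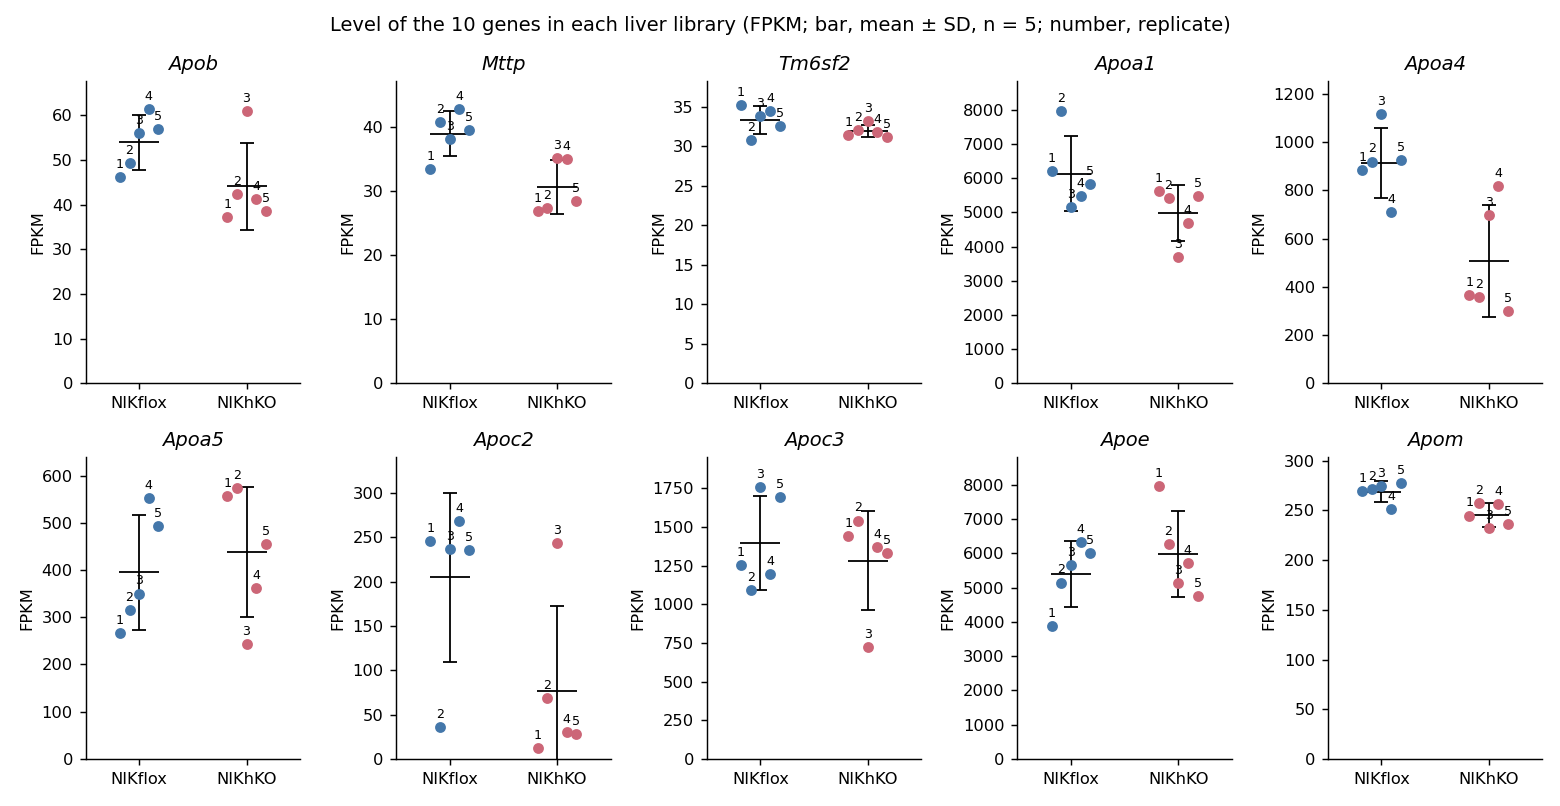
FPKM of each of the 10 genes (vertical axis, from 0) in the 5 NIKflox and 5 NIKhKO liver libraries (points, numbered by replicate), with the mean and SD (bar). Apob, Mttp and Apoa4 have most NIKhKO points at the low end, Apoc2 falls into high and low libraries, and Apom and Tm6sf2 barely spread; the SD of Apoc2 in NIKhKO is larger than its mean and is drawn only down to 0.

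Apob, the structural protein of VLDL (ENSMUSG00000020609, chromosome 12, 7977648 to 8016835, plus strand, in the mouse build GRCm38), read 46.1, 49.4, 56.1, 61.4 and 57.0 FPKM in NIKflox 1 to 5. In NIKhKO 1 to 5 it read 37.2, 42.4, 61.0, 41.3 and 38.5 FPKM. Thus 4 of the 5 NIKhKO livers lay below every NIKflox liver, and NIKhKO 3 lay near the highest NIKflox value. The log2 fold change was −0.22 (SE 0.15, approximate 95% interval −0.51 to 0.07, edgeR adjusted p = 0.69). Without NIKhKO 3 it was −0.39 (adjusted p = 0.27).

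Mttp, the lipid loading protein (ENSMUSG00000028158, chromosome 3, 138089854 to 138143388, minus strand), read 33.4, 40.7, 38.1, 42.8 and 39.5 FPKM in NIKflox and 26.8, 27.3, 35.2, 35.0 and 28.4 FPKM in NIKhKO. All 5 NIKhKO livers lay below the NIKflox median, 3 of them below the lowest NIKflox liver, and NIKhKO 3 and 4 lay within the NIKflox range. The log2 fold change was −0.28 (SE 0.12, interval −0.50 to −0.05, edgeR adjusted p = 0.46, unadjusted 0.034). The mean FPKM in NIKhKO was 78.5% of that in NIKflox for Mttp and 81.7% for Apob, while the fold ratios of the edgeR fit were 0.825 and 0.860. By FPKM the median over all genes lay slightly lower in NIKhKO. This median log2 difference was −0.05 with log2(FPKM + 1), against −0.01 in edgeR. The ratio of Mttp to Apob within a library was 0.680 to 0.824 in NIKflox and 0.576 to 0.848 in NIKhKO, and did not pass (exact two-sided permutation p = 0.70, adjusted over 5 ratios p = 0.70).

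Tm6sf2 (ENSMUSG00000036151, chromosome 8, 70072924 to 70080066, plus strand) read 35.2, 30.8, 33.8, 34.4 and 32.5 FPKM in NIKflox and 31.4, 32.1, 33.1, 31.9 and 31.2 FPKM in NIKhKO. The spread was small in both genotypes and the ranges overlapped. Its log2 fold change was 0.00 (SE 0.08), and the interval of −0.15 to 0.15 leaves room for a difference of at most 1.11-fold in either direction. Of the 1391 tested genes with a mean FPKM within 2-fold of its own, 4.24% varied less among NIKflox livers and 0.575% varied less among NIKhKO livers.

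Apoa1, Apoc3, Apoa4 and Apoa5 lie side by side on chromosome 9 within 43340 bases, the best known apolipoprotein gene cluster. Apoa4 (ENSMUSG00000032080, 46240696 to 46243459, plus strand) had the smallest p of the 10 genes. It read 886, 920, 1119, 711 and 928 FPKM in NIKflox and 364, 359, 697, 818 and 301 FPKM in NIKhKO. The NIKhKO livers differed among themselves: 1, 2 and 5 lay far below every NIKflox liver, 3 lay just below the lowest of them, and 4 lay within their range. In CPM scaled by TMM, NIKhKO 3 (1492) also lay within the NIKflox range of 1310 to 2140. The log2 fold change was −0.77 (SE 0.28, interval −1.33 to −0.22, edgeR adjusted p = 0.38, unadjusted 0.019). Leaving out 1 library at a time moved it between −0.64 and −1.01, and the adjusted p stayed above 0.05 each time.

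The neighbours of Apoa4 had other orders of the libraries. Apoa1 (ENSMUSG00000032083, 46228580 to 46230466, plus strand) read 6212, 7973, 5170, 5479 and 5835 FPKM in NIKflox and 5623, 5421, 3690, 4697 and 5476 FPKM in NIKhKO, with the highest value in NIKflox 2 and the lowest in NIKhKO 3. Its log2 fold change was −0.25 (SE 0.15, adjusted p = 0.66), and −0.13 without NIKflox 2. Apoc3, which lies between Apoa1 and Apoa4 on the opposite strand (ENSMUSG00000032081, 46232933 to 46235636), read 1251, 1094, 1757, 1192 and 1691 FPKM in NIKflox and 1439, 1541, 724, 1370 and 1332 FPKM in NIKhKO. NIKhKO 3 stood alone at the bottom, and the other 4 NIKhKO livers lay inside the NIKflox range, with a log2 fold change of −0.07 (SE 0.19, adjusted p = 0.95). Apoa5 (ENSMUSG00000032079, 46268633 to 46271919, plus strand) read 266 to 552 FPKM in NIKflox (median 350) and 244 to 573 FPKM in NIKhKO (median 456), with a positive log2 fold change of 0.21 (SE 0.23, adjusted p = 0.83). Within the cluster the ratio of Apoa4 to Apoa1 was 0.143, 0.115, 0.216, 0.130 and 0.159 in NIKflox and 0.0648, 0.0662, 0.189, 0.174 and 0.0549 in NIKhKO (exact two-sided permutation p = 0.15, adjusted p = 0.25), and the ratio of Apoc3 to Apoa1 gave p = 0.58 (adjusted p = 0.70) by the same exact test.

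**Figure D2:**
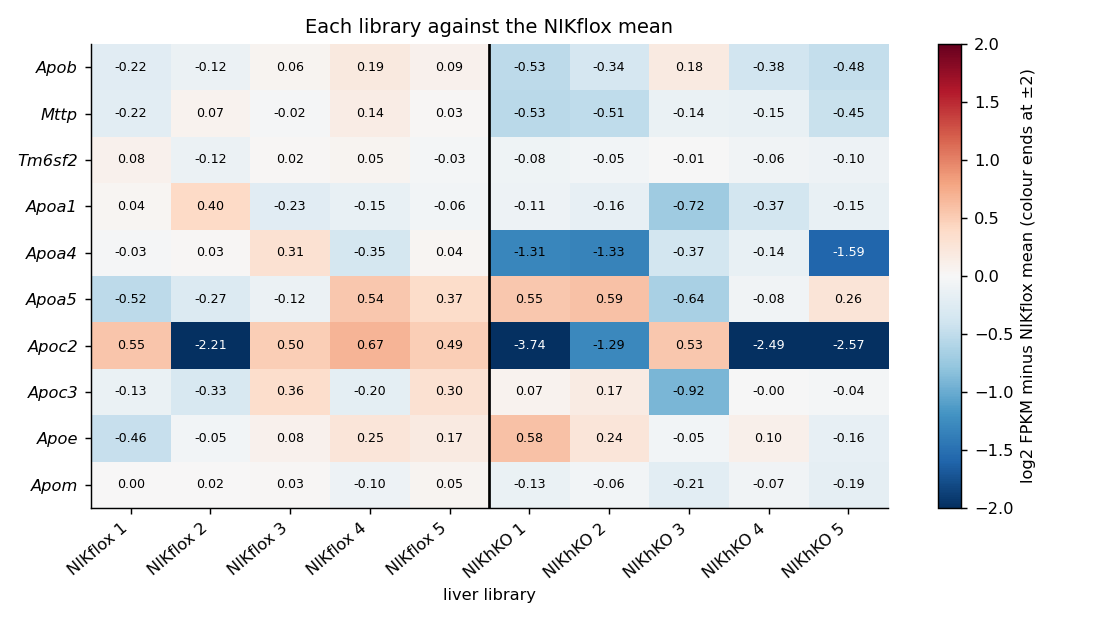
Log2 FPKM of each gene (rows) in each library (columns) minus the NIKflox mean of that gene, with the value in each cell; colours end at ±2. Apoa4 is at −1.31, −1.33 and −1.59 in NIKhKO 1, 2 and 5, and NIKhKO 3 differs from the other NIKhKO livers in Apob, Apoc2, Apoc3, Apoa1 and Apoa5.

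Apoc2, the lipase cofactor (ENSMUSG00000002992, chromosome 7, 19671579 to 19677941, minus strand), had the widest spread of the 10 genes on the log2 scale, and its level cannot be read apart from that of an overlapping gene model. The annotation (GENCODE M21 on GRCm38) places a second gene, Gm44805 (ENSMUSG00000109350, 19671584 to 19681423, minus strand), over it. Gm44805 starts at the first exon of the neighbouring Apoc4, whose end lies 141 bases from Apoc2, and joins it to the exons of Apoc2. All 3 annotated Apoc2 transcripts and both Gm44805 transcripts have a coding sequence with the same first base, 19673601, and the same last base, 19671764. Of the 631 bases of transcript Apoc2-201, 626 lie in exons of Gm44805, and of the 587 bases of Gm44805-202, 481 lie in exons of Apoc2. A pair of these exons is shown because a read that falls wholly within either matches both genes. The first, with the start codon in capitals, is chr7:19673547-19673613, and the next is chr7:19673229-19673379, both read from GENCODE M21 transcripts on the minus strand:
exon with start codon: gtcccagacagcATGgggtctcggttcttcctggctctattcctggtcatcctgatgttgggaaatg
next coding exon: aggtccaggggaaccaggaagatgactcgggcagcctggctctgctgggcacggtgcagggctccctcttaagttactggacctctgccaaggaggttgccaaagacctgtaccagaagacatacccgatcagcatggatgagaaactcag

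The models differ mainly at the 5′ end, and the junctions of exon 1 with exon 2 are shown for this reason, with the last 15 bases of exon 1 in capitals and the first 15 bases of exon 2 in lower case. Exon 1 of Gm44805-201, 19681305 to 19681423, lies within exon 1 of Apoc4, so a read inside it matches Apoc4 as well. The junction of Apoc2-201 does not separate the genes, since Gm44805-201 joins the same bases further along; that of Apoc2-203 joins an exon that Gm44805 does not have:
Apoc2-201: TGCCACTACATTCAGgtcccagacagcatg
Apoc2-203: AAGTCTTAGAGGCCGgcctgccaccccacc
Gm44805-201: TGGTCAGCTTTGTAGgcctgccaccccacc
Gm44805-202: TGGTCAGCTTTGTAGgtcccagacagcatg

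The table gave Apoc2 246, 36.5, 237, 268 and 236 FPKM in NIKflox and 12.6, 68.8, 244, 30.04 and 28.3 FPKM in NIKhKO. It gave Gm44805 the mirror image, 4.18, 128, 5.34, 4.83 and 5.23 FPKM in NIKflox and 166, 126, 5.88, 99.2 and 122 FPKM in NIKhKO. In 5 libraries (NIKflox 1, 3, 4 and 5 and NIKhKO 3) at least 97.8% of the counts of the 2 genes went to Apoc2, and in the other 5 at most 36.7% did. Those other 5 were NIKflox 2 and NIKhKO 1, 2, 4 and 5, so the division ran partly along the genotypes. Whether it differs between genotypes was not tested, and from this table a difference in how reads were assigned and a difference in transcript use cannot be told apart.

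Taken alone, Apoc2 had a log2 fold change of −1.32 (SE 0.76, interval −2.80 to 0.17, edgeR adjusted p = 0.62), the most negative of the 10. Added up, the 2 genes read 251, 164, 243, 273 and 241 FPKM in NIKflox and 179, 195, 250, 129 and 150 FPKM in NIKhKO. NIKflox 2 then lay among the NIKhKO livers and NIKhKO 3 among the NIKflox livers, and only NIKhKO 4 and 5 lay below the lowest NIKflox value. The log2 fold change of the summed counts, an analysis chosen after seeing the data, was −0.35 (SE 0.20, interval −0.73 to 0.04, adjusted p = 0.62). Apoc4, whose first exon the second model borrows, read 196 ± 21.2 and 195 ± 45.7 FPKM (SD, n = 5 each; log2 fold change 0.05, adjusted p = 0.94).

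**Figure D3:**
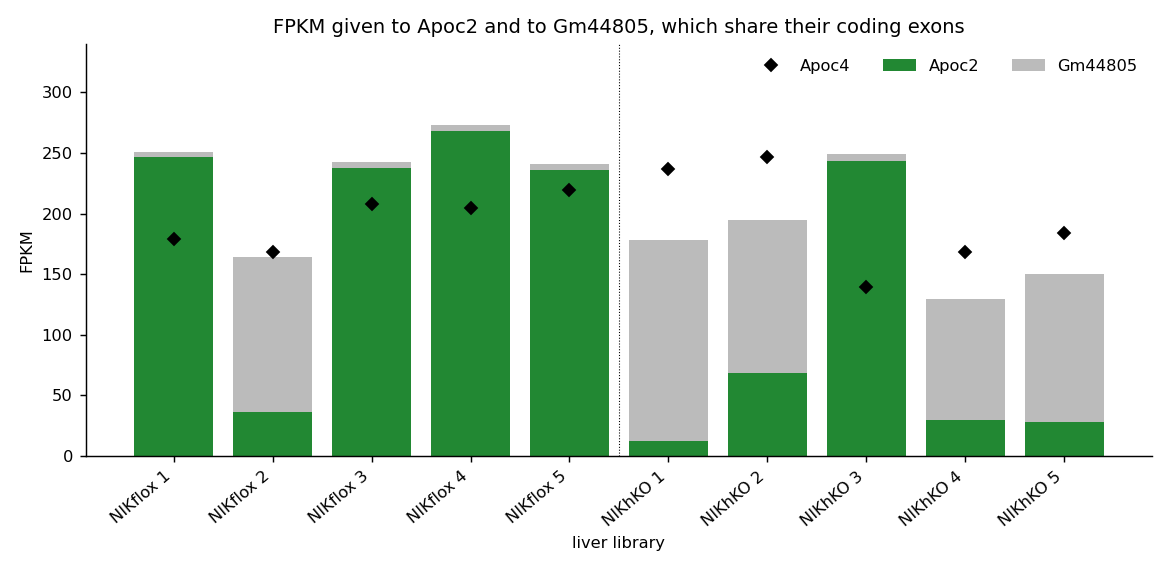
FPKM (vertical axis) given to Apoc2 (green) and to Gm44805 (grey, stacked on top) in each of the 10 liver libraries, with Apoc4 as a diamond. The stacked height varies from 129 to 273 FPKM, while the green part is either nearly the whole bar or the smaller part of it.

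The ratio of lipase cofactor to lipase inhibitor, Apoc2 to Apoc3, carried the same division. With Apoc2 alone it was 0.0334 to 0.225 in NIKflox and 0.00874 to 0.337 in NIKhKO, a mean log2 difference of −1.77 (exact two-sided permutation p = 0.13, adjusted p = 0.25). With Gm44805 added it was 0.138 to 0.229 in NIKflox and 0.0943 to 0.345 in NIKhKO, a mean log2 difference of −0.25 (exact permutation p = 0.52, adjusted p = 0.70). The difference was smaller with the sum, and in neither form did it pass.

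Apoe, the receptor ligand (ENSMUSG00000002985, chromosome 7, 19696109 to 19699188, minus strand), lies in the same cluster as Apoc2. It read 3882, 5152, 5655, 6330 and 6020 FPKM in NIKflox and 7967, 6290, 5133, 5727 and 4767 FPKM in NIKhKO. By FPKM, NIKhKO 1 stood above every NIKflox liver and NIKflox 1 below all others, with the rest overlapping. In CPM scaled by TMM, NIKhKO 2 (14326) also lay above the highest NIKflox liver (14017). The log2 fold change was 0.21 (SE 0.15, interval −0.09 to 0.50, adjusted p = 0.72), and 0.09 without NIKhKO 1. The ratio of Apoe to Apob was 84.2 to 106 in NIKflox and 214, 148, 84.1, 139 and 124 in NIKhKO 1 to 5, higher than every NIKflox ratio in 4 of 5 NIKhKO livers. The mean log2 difference was 0.45 (exact two-sided permutation p = 0.095, adjusted p = 0.25). Leaving out 1 library at a time moved it between 0.28 (without NIKhKO 1) and 0.62 (without NIKhKO 3, the only NIKhKO liver below the highest NIKflox ratio). Apoe is also made by macrophages, and the 11 Kupffer cell and macrophage markers, all above 0.5 FPKM on average, summed to 162 to 272 FPKM in NIKflox and 179 to 271 FPKM in NIKhKO. The part of these cells in the Apoe level was not tested.

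Apom (ENSMUSG00000024391, chromosome 17, 35128997 to 35132050, minus strand) varied less in FPKM among NIKflox livers, relative to genes of its level, than any other of the 10. It read 269, 272, 274, 252 and 278 FPKM in NIKflox and 245, 257, 232, 257 and 236 FPKM in NIKhKO. By FPKM, 3 NIKhKO livers lay below the lowest NIKflox liver, and none did in CPM scaled by TMM, where the means were 294 ± 20.5 and 280 ± 8.95 (SD, n = 5 each). The log2 fold change was −0.07 (SE 0.07, interval −0.22 to 0.08, adjusted p = 0.82). Of 271 genes with a mean within 2-fold, 0.738% varied less among NIKflox livers and 5.54% varied less among NIKhKO livers.

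**Figure D4:**
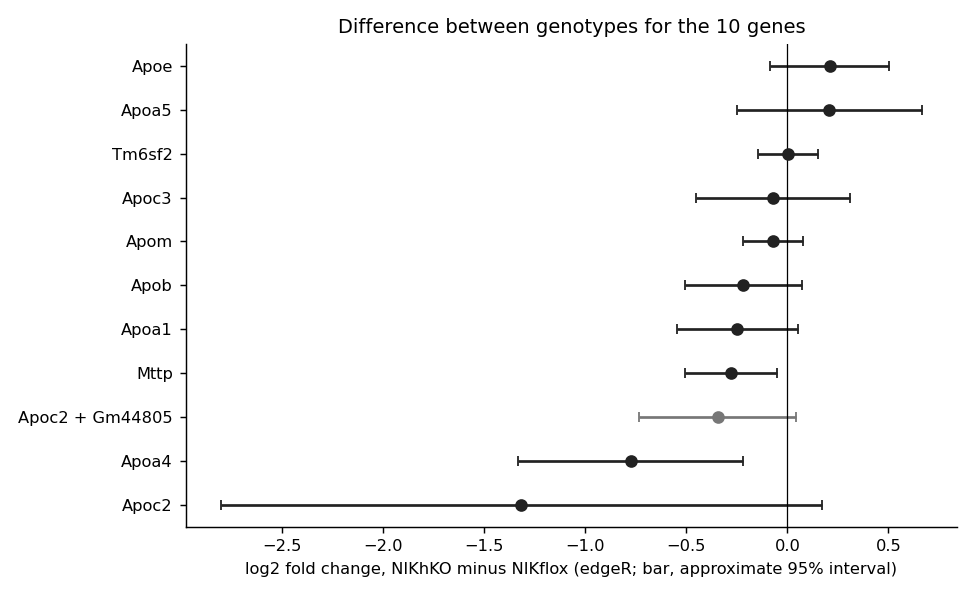
Log2 fold change (horizontal axis, NIKhKO minus NIKflox, edgeR) of the 10 genes with approximate 95% intervals from the SE and the normal distribution, and in grey the value for Apoc2 and Gm44805 added up. The intervals of Apoa4 and Mttp lie below 0 before adjustment over all genes; Tm6sf2 and Apom have the narrowest intervals.

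The genes varied in different ways from liver to liver. Apoc2 varied more than 98.9% of the 469 genes of like mean level in NIKflox and more than 99.6% in NIKhKO. For Apoa4 these shares were 51.6% in NIKflox and 94.6% in NIKhKO, and for Apob 35.7% and 75.1%, so both spread more in NIKhKO relative to genes of their level; this difference in spread was not tested. Correlations of log2(FPKM + 1) over the 10 libraries, after removing the mean of each genotype, are given as a description, since all points share library depth and scaling. Of 45 pairs, 22 were positive. The highest were Apob with Apoc2 (r = 0.77), Apoc2 with Tm6sf2 (r = 0.77), Apoa5 with Apoe (r = 0.72) and Apob with Mttp (r = 0.70), and the lowest were Apoa1 with Apoc2 (r = −0.85) and Apoa1 with Apob (r = −0.81). The pairs with Apoc2 include the division between gene models described above. Among NIKhKO livers, NIKhKO 3 had the highest Apob (61.0 FPKM) and Apoc2 (244 FPKM) and the lowest Apoa1 (3690 FPKM). Pairs of these genes therefore rest in part on that library, and no r was taken without it. The genes named next were each picked as the highest r among all tested genes, so a high r alone does not show a relation. Outside the 10 genes, the tested gene most like each by the same r over 10 libraries was Gpi1 for Apob (r = 0.97), Lamc1 for Mttp (r = 0.96), Stxbp3-ps for Tm6sf2 (r = 0.90), Lyrm7 for Apoa1 (r = 0.96), Atrnl1 for Apoa4 (r = 0.97), Mrps18a for Apoa5 (r = 0.97), Sbno1 for Apoc2 (r = 0.95), Gm45083 for Apoc3 (r = 0.95), Fzd5 for Apoe (r = 0.95) and C630043F03Rik for Apom (r = 0.95).

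The wider pathway was read from 7 lists, and 0 genes of any list passed over all genes in edgeR. Some genes are counted in more than a single list. Among 35 genes of VLDL lipidation and export from the endoplasmic reticulum, all tested, 13 lay above 0 and 22 below it on the log2 fold change scale (median −0.05), and 10 had an unadjusted p below 0.05, beside 10% of all genes. Ces3a, a liver carboxylesterase, averaged 243 ± 78.4 FPKM in the NIKflox group against 106 ± 31.1 FPKM in the NIKhKO group (mean ± SD, 5 libraries each), with ranges that lay apart and a log2 fold change of −1.14 (SE 0.28, adjusted p = 0.23). The ranges of Sar1a also lay apart (7.63 ± 2.68 and 4.76 ± 0.6997 FPKM, log2 fold change −0.61, adjusted p = 0.35), while Sar1b, the GTPase of the coat that carries lipoproteins out of the endoplasmic reticulum, had a positive log2 fold change of 0.24 (102 ± 6.59 and 115 ± 6.38 FPKM, adjusted p = 0.35). The Ces3 and Sar1 genes each have a close paralog, which makes their levels uncertain. The other 7 at an unadjusted p below 0.05, named after their values were seen, were Ces3b (log2 fold change −0.99), Hspa5 (−0.71), Calr (−0.37), Pdia3 (−0.35), Hsp90b1 (−0.33), Canx (−0.26) and Lpcat3 (0.22), with edgeR adjusted p-values of 0.35 to 0.49; the ranges of Canx also lay apart (55.8 ± 7.18 and 44.7 ± 0.693 FPKM). P4hb, the partner subunit of Mttp and also chosen outside the rule, had a log2 fold change of −0.05 (adjusted p = 0.94).

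Among other genes named as apolipoproteins, 15 were tested, of which 13 lay above 0 and 2 below it in log2 fold change (median 0.27, against −0.01 and 51.8% below 0 over all genes), and 5 had an unadjusted p below 0.05, beside 10% of all genes. Saa4, a serum amyloid apolipoprotein carried on HDL, averaged 72.8 ± 11.1 FPKM in the NIKflox group against 108 ± 19.97 FPKM in the NIKhKO group (mean ± SD, 5 libraries each; log2 fold change 0.64, SE 0.13, adjusted p = 0.20). Apol9a, which has a near-identical neighbour and is therefore uncertain, read 4.51 ± 1.19 and 8.69 ± 4.05 FPKM (adjusted p = 0.29), and Apool, a protein of the mitochondrial inner membrane despite its name, 5.29 ± 0.464 and 6.12 ± 0.350 FPKM (adjusted p = 0.36). The abundant plasma apolipoproteins of this list included Apoa2, the second protein of HDL, at 12454 ± 1679 and 14444 ± 3648 FPKM (log2 fold change 0.28, adjusted p = 0.61), and Apoc1, beside Apoe on the chromosome, at 2595 ± 373 and 3124 ± 745 FPKM (log2 fold change 0.32, adjusted p = 0.52). No test compared this list with the 10 genes.

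Genes that handle the particles after secretion went both ways. Of 13 genes of plasma lipolysis, 7 lay above 0 and 6 below it in log2 fold change (median 0.03). Angptl8, an inhibitor of lipoprotein lipase made by the liver in the fed state, read 50.2 to 299 FPKM in NIKflox and 27.8 to 96.6 FPKM in NIKhKO (log2 fold change −1.49, SE 0.44, adjusted p = 0.29). The lipase Lpl read 2.62 ± 0.520 and 3.55 ± 0.671 FPKM (adjusted p = 0.34) and the endothelial lipase Lipg 3.19 ± 1.06 and 2.20 ± 0.420 FPKM (SD, n = 5 each; adjusted p = 0.47). Of 17 genes of lipoprotein uptake, 9 were positive and 8 negative with a median of 0.01. Vldlr, the VLDL receptor, read 0.596 to 2.15 FPKM in NIKflox and 2.10 to 3.66 FPKM in NIKhKO (log2 fold change 1.12, SE 0.30, adjusted p = 0.26), and the ranges overlapped only through NIKhKO 4 at 2.10 FPKM. The list's other members with the smallest p, Lsr (99.4 ± 8.54 and 80.7 ± 10.2 FPKM) and Lrp5 (8.97 ± 0.744 and 7.53 ± 0.777 FPKM), had adjusted p-values of 0.51 and 0.61.

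HDL and cholesterol export genes had positive log2 fold changes in 12 of 13, all small, with a median of 0.08. Over all genes 51.8% were negative. None of the 13 had an unadjusted p below 0.05, beside 10% of all genes. Apoa2, Abcg5 (22.9 ± 4.09 and 25.1 ± 2.19 FPKM) and Scarb1 (21.7 ± 2.50 and 23.0 ± 2.53 FPKM) had the smallest p. Apoa2, Scarb1, Lcat, Pltp and Nr1h3 are also counted in other lists. Of 28 transcription factors that act on apolipoprotein genes, 15 were positive and 13 negative with a median of 0.04. Nr1d1, the clock repressor REV-ERB alpha, for which Apoc3 is a known target in rodents, averaged 10.3 ± 3.64 FPKM in the NIKflox group against 20.3 ± 4.24 FPKM in the NIKhKO group (mean ± SD, 5 libraries each), with ranges that did not overlap (6.72 to 15.2 and 15.5 to 26.5 FPKM; log2 fold change 1.04, SE 0.24, adjusted p = 0.23). The bile acid receptor Nr1h4 read 31.8 ± 4.11 and 36.8 ± 2.31 FPKM (adjusted p = 0.29) and the coactivator Ppargc1b 0.437 ± 0.120 and 0.661 ± 0.212 FPKM (adjusted p = 0.44). Creb3l3, a known activator of Apoa4, Apoa5 and Apoc2 in liver, and Hnf4a, which acts on most of the 10 genes, had log2 fold changes of −0.08 each (adjusted p = 0.87 and 0.89); both were named outside the fixed rule.

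**Figure D5:**
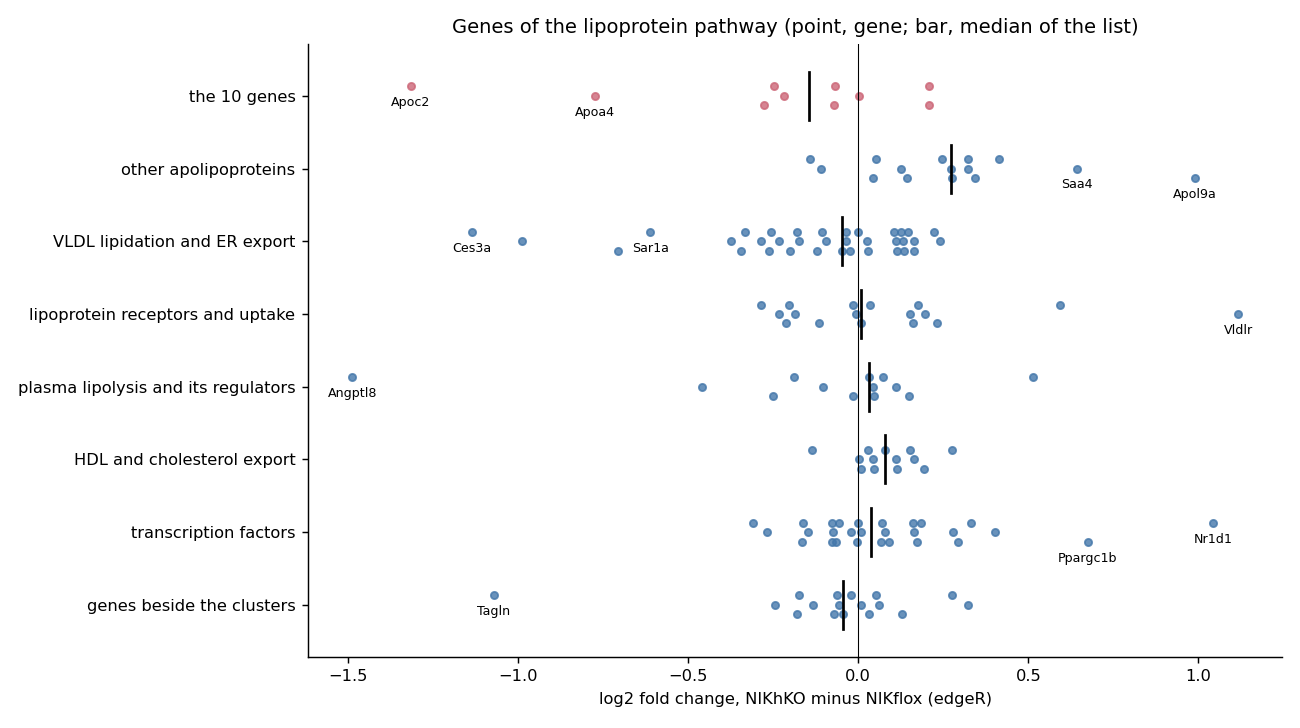
Log2 fold change (horizontal axis, NIKhKO minus NIKflox, edgeR) of every tested gene (points) in the 10 genes (red) and in 7 lists of the lipoprotein pathway (blue, the 10 genes left out), with the median of each list as a bar. The median of the 10 genes is −0.14 and that of the other apolipoproteins 0.27; no point passed the adjusted threshold.

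Genes in or beside the clusters and beside Apom were read by position. They include Apoc1 and Apoc4, apolipoprotein genes of the Apoe cluster that are also counted among the other apolipoproteins. Of 17 tested, 7 were positive and 10 negative with a median of −0.04. Tagln, a smooth muscle gene near the Apoa1 cluster, had the smallest p (4.88 ± 3.34 and 2.22 ± 0.504 FPKM, SD, n = 5 each; adjusted p = 0.37). It read 10.4 FPKM in NIKflox 2 and 5.52 FPKM in NIKflox 4, the libraries with the highest heart muscle markers. The other NIKflox livers read 2.16 to 3.57 FPKM, and NIKhKO livers 1.43 to 2.79 FPKM. A link between the muscle markers and Tagln was not tested. Next by p were Apoc1 and Nectin2 (11.7 ± 2.65 and 9.46 ± 1.77 FPKM, adjusted p = 0.63). The small intestine makes Apob, Mttp, Apoa1 and Apoa4 as well, and of 10 enterocyte markers 7 lay below 0.1 FPKM in every library, among them Sis, Lct, Alpi and Cdx2; the list's sum, 32.8 to 67.9 FPKM in NIKflox and 40.7 to 89.0 FPKM in NIKhKO, came almost wholly from Fabp2. Summed markers overlapped between genotypes for adipocytes (241 to 806 FPKM in NIKflox and 250 to 478 in NIKhKO), stellate cells (63.8 to 111 and 61.2 to 77.1) and sinusoidal endothelial cells (59.7 to 74.4 and 41.3 to 71.6). Of the 8 adipocyte genes, which include Pck1, 4 averaged at least 0.5 FPKM, and Lep lay below 0.1 FPKM in every library. The adipocyte sum was not split by gene, so it is not read as a measure of adipocytes. Cholangiocyte markers (32.6 to 53.1 and 20.8 to 33.8 FPKM) were below every NIKflox liver in 4 of 5 NIKhKO livers, and B cell markers (3.94 to 7.35 and 5.48 to 14.7 FPKM) were above every NIKflox liver in 4 of 5, with NIKhKO 4 the exception in both. Their part in the levels of the 10 genes was not tested.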

How the data were processed

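The authors deposited 1 table of FPKM values and estimated counts (whole numbers) for each gene in each library, per the file headers. Tools listed without role or order in the submitters' processing notes are StringTie 1.3.4d, HISAT2 2.0.4, cutadapt 1.9 and edgeR, and the build listed is the human hg38; the table's identifiers and coordinates are mouse, and 9 of the 10 genes, all but Mttp, have the same start and end in GENCODE M21 (GRCm38). RNA was selected with oligo(dT), per the labels' protocols. The sources used here do not give how the deposited estimated counts were made or whether strand was used; low counts fall in excess on multiples of 4, so an alternative divided them by 4.

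The test was edgeR 4.0.16 (R 4.3.3, TMM scaling, quasi-likelihood, two-sided) on the estimated counts, over 12731 genes whose FPKM averaged 0.5 or more, with the 10 genes and Map3k14 kept at any level. SE is the size of the log2 fold change over the square root of F. Ratios were compared with the exact permutation test over all 252 arrangements, whose smallest p is 0.0079. Alternatives used limma 3.58.1 and DESeq2 1.42.0, other scalings and filters, and fewer libraries. The gene test was tested on simulated data. No label says that libraries of a genotype came from separate animals, so p-values measure the spread between these samples; no pair of libraries agreed within counting noise. The 10 genes and all lists were chosen with earlier results of these data known. Named genes are the 10, Map3k14, the 3 smallest p-values of each list, and the genes most alike to each of the 10, of which the first is printed; a few others, such as P4hb, Creb3l3 and Hnf4a, fall outside this rule.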

Additional observations from a re-analysis of the deposited data

Results flagged for a closer look

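Of 34 groups of 5 values looked at (each of the 10 genes, Gm44805, its sum with Apoc2, and the 5 ratios, in each genotype), 7 had 1 library far from the other 4. Chance gives this in about 1 in 20 groups, and the groups share libraries. NIKhKO 3 was the distant library in 4 of the 7, with 61.0 FPKM of Apob, 244 FPKM of Apoc2, 724 FPKM of Apoc3 and a ratio of Apoc2 to Apoc3 of 0.337. NIKflox 2 was the distant library for Apoc2 (36.5 FPKM) and for Gm44805 (128 FPKM). NIKflox 1 had a ratio of Apoe to Apob of 84.2, below the other NIKflox livers. With Gm44805 added to Apoc2, the ratio to Apoc3 in NIKhKO 3 (0.345) still stood far from the other NIKhKO livers (0.0943 to 0.126), and the summed FPKM of NIKflox 2 (164) was the lowest of NIKflox, next to 241.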

How the results depend on the processing

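None of the 10 genes was called under any of 22 alternatives, and Apob, Mttp, Apoa1, Apoa4, Apoa5, Apoc2, Apoe and Apom kept their direction in each that gave a value; DESeq2 gave no adjusted p for Apoc2, and summing it with Gm44805 was a further alternative. Apoc3, at −0.07, had the opposite sign in 3 alternatives, and Tm6sf2, at 0.00, in 7. Leaving out 1 library at a time moved Apob between −0.39 and −0.15 and Apoc2 between −2.51 and −1.04, both most negative without NIKhKO 3. In the same way Apoa1 moved between −0.30 and −0.13 (without NIKflox 2), Apoe between 0.09 (without NIKhKO 1) and 0.27, Apoa5 between 0.11 (without NIKflox 1) and 0.35 (without NIKhKO 3), and Apoc3 between −0.14 (without NIKflox 2) and 0.07 (without NIKhKO 3). None of the 5 ratios passed under any alternative. Where libraries were left out, the exact test had fewer arrangements, and 1 ratio alone could not have passed after adjustment. The smallest p was 0.016, for Apoe to Apob without NIKhKO 3 (exact two-sided permutation, adjusted p = 0.079). The count of genes called over the whole table, 3, was 9 with total-count scaling, 6 with robust shrinkage, 207 with DESeq2, 1 without NIKflox 2 and 4, and 0 with limma at either pseudocount (1375 and 1365 at an unadjusted p below 0.05); it ran from 0 to 24 when 1 library at a time was left out, with 24 without NIKhKO 4; the cause was not tested. With the replicate number as a block it was 2. Same-numbered libraries correlated between −0.32 and 0.030 in their deviations, and 0 of 10 libraries correlated best with its own number, so no pairing by number was seen. A pairing with little effect across all genes would not show in this check. Depth does not limit the 10 genes, each of which held at least 653 counts in every library.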
